A study of Homo sapiens with 4 samples.

Results

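The 9 genes described here encode enzymes that build or oxidise polyunsaturated phospholipids and plasmalogens. They are the rows of the expression table with the symbols ACSL1, ACSL3, ACSL4, LPCAT3, FAR1, GNPAT, AGPS, POR and CYB5R1. All 9 symbols were found once each among 20323 genes. The series holds 4 RNA-seq libraries of polyadenylated RNA from HT-1080, a human fibrosarcoma cell line in which ferroptosis, death by peroxidation of membrane lipids, is often studied. By genotype, 2 libraries are sgNC (control 1 and control 2), 1 is sgPKA, named for protein kinase A, and 1 is sgALKBH5, named for an RNA demethylase that removes m6A. All were grown in the same serum-containing DMEM, and the labels give no drug, time point, subunit targeted by sgPKA, or statement of whether a line is a clone or a pool.

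The shallowest library, sgPKA, had 14050867 counts and the deepest, sgALKBH5, had 25937347. PRKACA, the gene of a catalytic subunit of the kinase, was at 10.6 TPM (transcripts per 1000000, a level per transcript length) in sgPKA and between 60.5 and 70.9 TPM elsewhere. ALKBH5 was at 37.5 TPM in sgALKBH5 and between 67.1 and 80.2 TPM elsewhere. Of 6 mesenchymal markers, VIM, SPARC, FN1, CD44 and CDH2 were well above 10 TPM in every library, while NT5E lay between 0.115 and 0.506 TPM. Some of them split the controls. FN1 was at 1030 TPM in control 1 and 745 TPM in sgALKBH5, but at 118 TPM in control 2 and 220 TPM in sgPKA. CDH2 was at 73.9 and 63.4 TPM in the first pair and 19.2 and 26.6 TPM in the second, and SPARC at 2215 and 1742 TPM against 909 and 635 TPM. On FN1, CDH2 and SPARC sgALKBH5 thus lay nearer to control 1 and sgPKA nearer to control 2. CD44 was at 1337 and 789 TPM in the controls, 1396 TPM in sgALKBH5 and 1058 TPM in sgPKA, which lay between the controls. VIM was at 6730 and 6840 TPM in the controls, 7839 TPM in sgPKA and 7853 TPM in sgALKBH5, and did not split them. NT5E was at 0.506 and 0.374 TPM in the controls, 0.115 TPM in sgPKA and 0.308 TPM in sgALKBH5. The part of this split in the results below was not tested. The 10 markers of epithelial, blood, endothelial, muscle and liver cells summed to between 0.782 and 3.61 TPM per library, and EPCAM and ALB were at 0 in all. Neither target was at 0, and no protein was measured, so sgPKA and sgALKBH5 are called targeted libraries here. Each is 1 library, so nothing below is checked by a repeat. Whether the controls come from separate cultures is not given, and p-values then measure only the spread between these libraries, which may be technical. In bulk RNA, fewer expressing cells and less RNA per cell cannot be told apart.

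Polyunsaturated fatty acids enter phospholipids in 2 steps. A long-chain acyl-CoA synthetase joins the fatty acid to coenzyme A, and a lysophospholipid acyltransferase then places it on a lysophospholipid. ACSL4 prefers arachidonic and adrenic acid, ACSL3 is known for supplying monounsaturated acyl chains and for its place on lipid droplets, and ACSL1 is a broad-specificity enzyme of fat and liver. LPCAT3 inserts arachidonate and linoleate into phosphatidylcholine and phosphatidylethanolamine. Plasmalogens are ether phospholipids that carry much polyunsaturated acid. Their synthesis starts in peroxisomes, where FAR1 supplies the fatty alcohol, GNPAT acylates dihydroxyacetone phosphate and AGPS exchanges the acyl chain for the alkyl ether. POR, which feeds electrons from NADPH to the microsomal cytochromes P450, and CYB5R1, a NADH-dependent reductase, are both known as sources of the oxidants that start lipid peroxidation.

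By symbol, RefSeq on GRCh38.p14 places the acyl-CoA synthetase genes apart from each other, ACSL1 (ENSG00000151726) on chromosome 4 from 184755595 to 184826594, ACSL3 (ENSG00000123983) on chromosome 2 from 222861036 to 222944639 and ACSL4 (ENSG00000068366) on chromosome X from 109641335 to 109733257. It places LPCAT3 (ENSG00000111684) on chromosome 12 from 6976185 to 7018476. Of the ether lipid genes, it places FAR1 (ENSG00000197601) on chromosome 11 from 13668668 to 13732346, GNPAT (ENSG00000116906) on chromosome 1 from 231241212 to 231277973 and AGPS (ENSG00000018510) on chromosome 2 from 177392773 to 177543834. The reductase genes are POR (ENSG00000127948) on chromosome 7 from 75915155 to 75986855 and CYB5R1 (ENSG00000159348) on chromosome 1 from 202961873 to 202967257.

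In the controls POR had the highest level per transcript length, at 88.5 ± 18.7 TPM (SD, n = 2). ACSL3 followed at 31.7 ± 0.479 TPM and CYB5R1 at 28.3 ± 0.192 TPM. GNPAT was at 26.1 ± 1.48 TPM, AGPS at 25.8 ± 1.94 TPM and LPCAT3 at 23.1 ± 5.03 TPM, and the control values of neighbours in this trio overlapped. ACSL4 was at 14.1 ± 1.61 TPM, FAR1 at 12.8 ± 0.969 TPM and ACSL1 at 11.8 ± 2.29 TPM, again with overlapping neighbours. The other neighbours in this order did not overlap in their control values. Control 2 was 1.5-fold from control 1 for 0 of the 9 genes in either direction, against 5.57% of genes above and 11% below. Among 11629 genes with a mean of at least 1 TPM, the mean of the 4 libraries placed ACSL1 lowest of the 9, at percentile 38.8, and POR highest, at 82.1. All 9 genes thus had usable depth, with between 301 and 2235 counts per library.

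**Figure D1:**
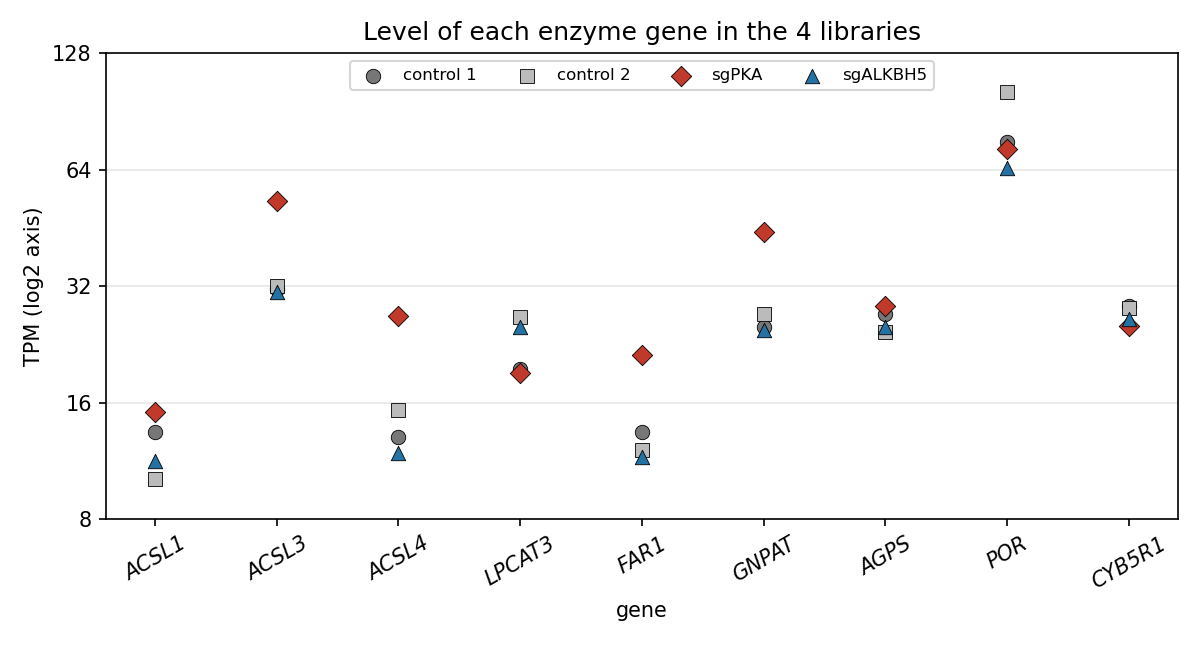
TPM of each enzyme gene on a log2 axis, with 1 symbol per library. The sgPKA diamonds of ACSL3, ACSL4, FAR1 and GNPAT stand clear above the other 3 libraries, which lie close together for these genes, with ACSL3 of control 1 hidden behind control 2; POR and LPCAT3 are highest in control 2.

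Setting sgPKA against the controls addresses how these transcripts stand in cells with that guide, in a study on protein kinase A and ferroptosis. In sgPKA the acyl-CoA synthetase genes ACSL3 and ACSL4 and the ether lipid genes FAR1 and GNPAT lay between 1.58 and 2.05 times the TPM of either control. ACSL1 and AGPS lay above both controls by less, and LPCAT3, POR and CYB5R1 lay below both. None of the 9 passed the test across all genes.

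ACSL4 was at 13.0 TPM in control 1, 15.3 TPM in control 2, 26.7 TPM in sgPKA and 11.8 TPM in sgALKBH5. The sgPKA value stood alone at the top, 2.05 times control 1 and 1.75 times control 2, and no member had a wider range over the libraries. In counts scaled by TMM (trimmed mean of M-values, which sets libraries to a common centre) and given as CPM (counts per 1000000), ACSL4 was at 63.4 in sgPKA against 34.0 and 42.8 in the controls. The log2 fold change from edgeR was 0.72 with a standard error of 0.25, an unadjusted p of 0.0421 and an adjusted p of 0.527 over all genes. Here and below, standard errors for edgeR were computed back from the fold change and the test statistic. They rest on few degrees of freedom, so a fold change of several standard errors is not strong evidence.

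ACSL3 was at 31.4 and 32.1 TPM in the controls, 53.2 TPM in sgPKA and 30.9 TPM in sgALKBH5. The other libraries lay within a narrow band and sgPKA was 1.70 and 1.66 times the controls. The edgeR log2 fold change was 0.57 (standard error 0.22), with an adjusted p of 0.527. ACSL1 was at 13.4 and 10.2 TPM in the controls, 15.1 TPM in sgPKA and 11.3 TPM in sgALKBH5. Its gap between the controls was wider than the gap from control 1 to sgPKA, and its log2 fold change was 0.22 (standard error 0.25).

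The 3 synthetase genes summed to 57.8 and 57.5 TPM in the controls, 95.03 TPM in sgPKA and 54.1 TPM in sgALKBH5. ACSL3 held 54.3% and 55.8% of this sum in the controls, 56.0% in sgPKA and 57.2% in sgALKBH5, so its share stayed within a few points. The share of ACSL4 was 22.5% and 26.6% in the controls, 28.1% in sgPKA and 21.9% in sgALKBH5. The TPM of ACSL4 relative to ACSL3 was 0.415 and 0.477 in the controls, 0.502 in sgPKA and 0.383 in sgALKBH5. The targeted libraries thus lay on opposite sides of the controls in this ratio, each by less than the gap between the controls.

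Among the plasmalogen genes, FAR1, which makes the fatty alcohol and is rate-limiting for the pathway, was at 13.4 and 12.1 TPM in the controls, 21.2 TPM in sgPKA and 11.5 TPM in sgALKBH5. The sgPKA value was 1.58 and 1.76 times the controls. The edgeR log2 fold change was 0.62 (standard error 0.21), with an unadjusted p of 0.0379 and an adjusted p of 0.527. GNPAT, the first enzyme of the ether lipid pathway, was at 25.03 and 27.1 TPM in the controls, 44.2 TPM in sgPKA and 24.7 TPM in sgALKBH5. It was 1.77 and 1.63 times the controls in TPM but 1.51 and 1.32 times in TMM-scaled counts, with an edgeR log2 fold change of 0.49, a standard error of 0.22 and an adjusted p of 0.531.

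AGPS, which acts directly after GNPAT, did not share this difference in size. It was at 27.1 and 24.4 TPM in the controls, 28.4 TPM in sgPKA and 25.03 TPM in sgALKBH5, and all 4 values lay within 1.17 times of each other. Its place above both controls in sgPKA was lost when TPM was rescaled by the TMM factors. The sum of FAR1, GNPAT and AGPS was 65.6 and 63.6 TPM in the controls, 93.8 TPM in sgPKA and 61.2 TPM in sgALKBH5. AGPS held 41.4% and 38.4% of it in the controls and 30.3% in sgPKA, while GNPAT held 38.2% and 42.7% in the controls and 47.1% in sgPKA. These shares are of TPM alone. In TMM-scaled CPM, GNPAT was at 34.9 and 39.8 in the controls and 52.6 in sgPKA. AGPS was at 44.6 and 46.7 CPM in the controls and 50.2 CPM in sgPKA, and FAR1 at 27.5 and 30.1 CPM and 44.4 CPM.

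The acyltransferase and the reductases lay on the other side. LPCAT3 was at 19.5 and 26.6 TPM in the controls, 19.1 TPM in sgPKA and 25.1 TPM in sgALKBH5. Control 1 and sgPKA formed one pair and control 2 and sgALKBH5 the other, so sgPKA was at 0.979 times control 1 but 0.718 times control 2. The edgeR log2 fold change in sgPKA was -0.45 with a standard error of 0.31. POR was at 75.3 and 102 TPM in the controls, 72.5 TPM in sgPKA and 64.7 TPM in sgALKBH5. Control 2 alone was high, so sgPKA was at 0.963 times control 1 but 0.712 times control 2, and the edgeR log2 fold change in sgPKA was -0.46 with a standard error of 0.31.

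CYB5R1 was at 28.4 and 28.1 TPM in the controls, 25.2 TPM in sgPKA and 26.4 TPM in sgALKBH5. The controls were within a few percent of each other and both targeted libraries lay below them, sgPKA at 0.887 and 0.896 times their TPM. In TMM-scaled counts sgPKA was at 0.803 and 0.769 times the controls, with an edgeR log2 fold change of -0.35, a standard error of 0.23 and an adjusted p of 0.577.

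**Figure D2:**
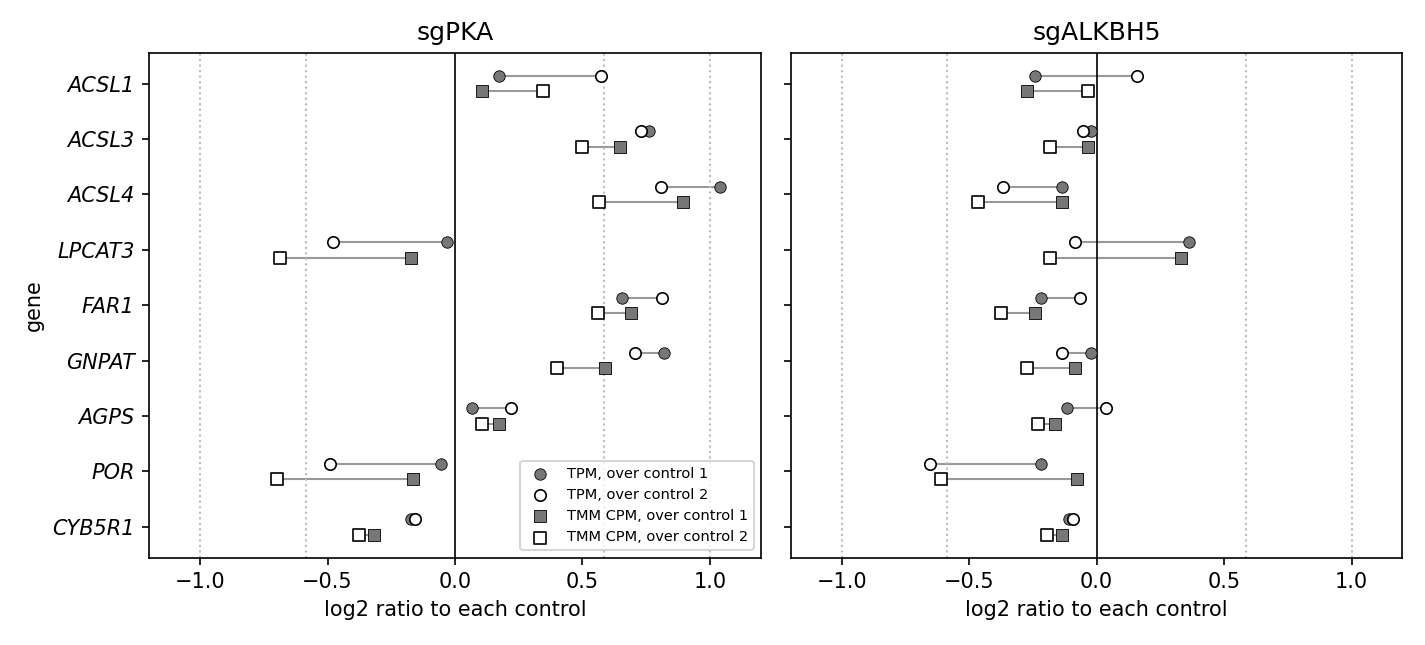
Log2 ratio of each targeted library to each control, for TPM (circles) and TMM-scaled CPM (squares), with filled symbols for control 1 and open symbols for control 2; dotted lines mark 1.5-fold and 2-fold. In sgPKA, ACSL3, ACSL4, FAR1 and GNPAT lie right of 0 on both scales; in sgALKBH5 no gene lies right of 0 for both controls.

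By its quasi-likelihood test, edgeR called 0 of the 9 genes between sgPKA and control, where it called 0 of 13061 genes (0%), while DESeq2 called 0 of the 9 against 121 of 11541 genes with an adjusted p (1.05%) and limma 0 of the 9 and 0 genes in all (0%). ACSL4 and FAR1 had an unadjusted edgeR p under 0.05 in the higher direction, against 3.56% of all genes, and 0 did in the lower, against 5.5%. A fold of 2 from both controls on the scale of log2(TPM + 1), which understates changes of low genes, was reached by 0 of the 9 above and 0 below, against 1.04% and 1.39% of 11629 genes. A fold of 1.5 above both controls was reached by 4 of the 9 genes, ACSL3, ACSL4, FAR1 and GNPAT, against 9.55% of genes, and by 0 of the 9 below, against 4.17%.

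This count depended on the scaling. TPM of sgPKA ran above the controls by a median of 0.15 over all genes, on the scale of log2(TPM + 1). In TMM-scaled CPM, where that median was 0.00, 0 of the 9 genes reached 1.5-fold above both controls, against 5.06% of genes, and 0 below, against 6.64%. With TPM rescaled by the TMM factors, ACSL3 and ACSL4 did, against 5.46%, while 5 of the 9 lay above both controls, against 41.7%, and 3 below, against 35%. The 4 genes kept their place above both controls on all 3 scales. In all, 6 of the 9 genes lay above both controls in TPM, where 50.3% of genes did, and 3 lay below both, where 26.9% did. In TMM-scaled CPM the same 6 lay above, against 39.7%, and the same 3 below, against 38.3%. With shares this high over all genes, lying outside both controls says little about any single gene. The median difference of the 9 genes from the control mean was 0.345 in log2(TPM + 1), and 0.22 in log2(CPM + 1).

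The exact 95% Poisson intervals of the TMM-scaled CPM, which cover counting error only, kept sgPKA above both controls for ACSL3, ACSL4, FAR1 and GNPAT, which is 4 of the 9 genes, against 22.6% of 9169 genes with at least 100 counts in every library. They kept it below both for POR and CYB5R1, against 22.5%. For ACSL4 they ran from 59.4 to 67.5 CPM in sgPKA, from 31.4 to 36.8 CPM in control 1 and from 39.8 to 45.9 CPM in control 2. They also kept the controls apart from each other for ACSL4, LPCAT3 and POR, which is 3 of the 9, against 51.8% of genes. Libraries of the same genotype thus differed by more than counting error too.

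**Figure D3:**
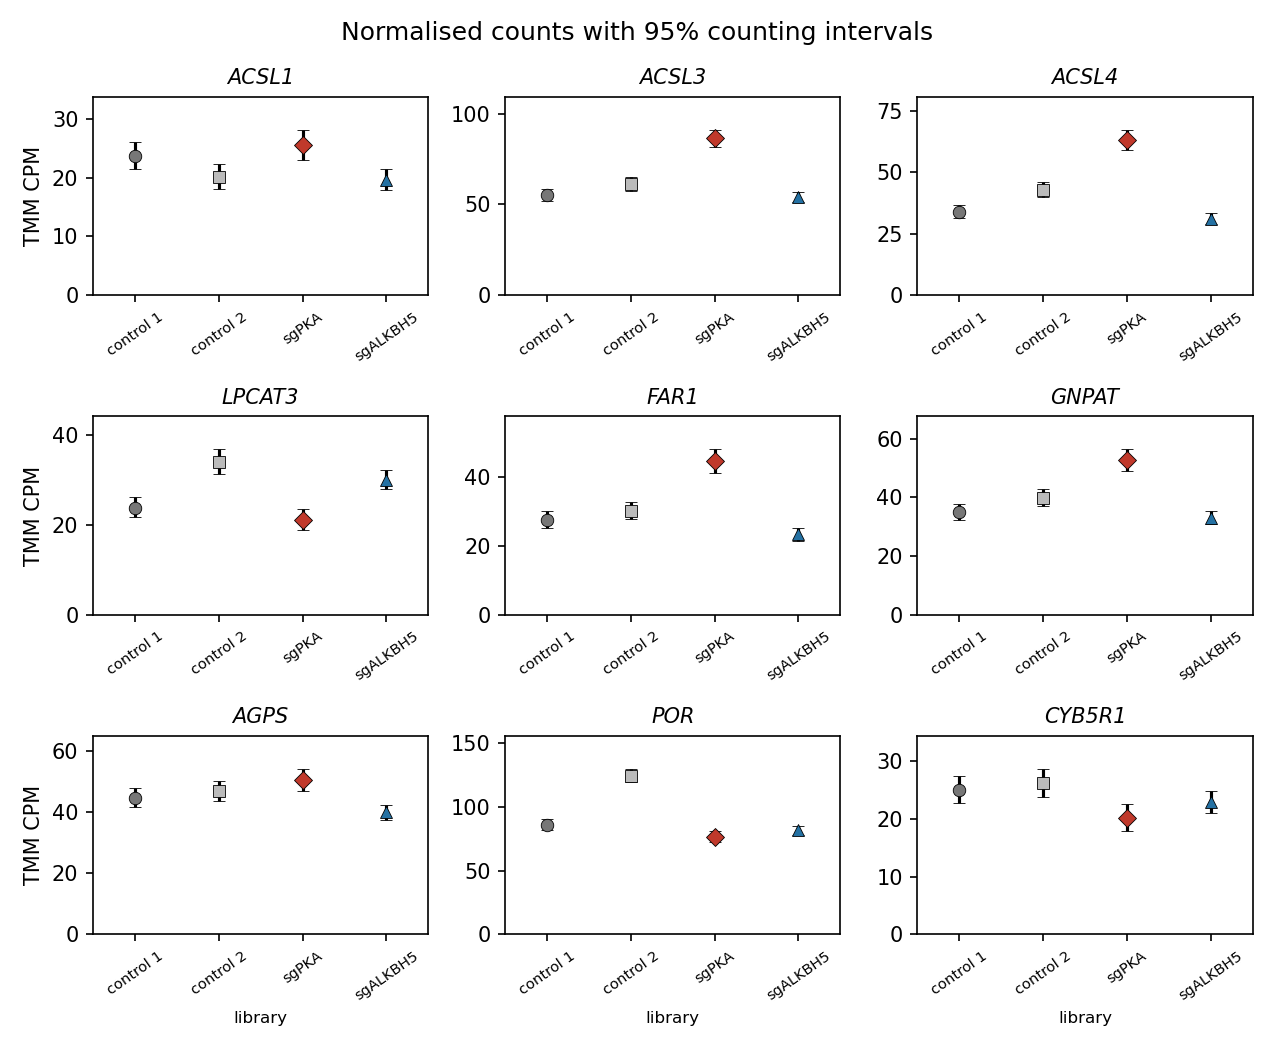
TMM-scaled CPM of each gene in each library, with exact 95% Poisson intervals of counting error as bars and every vertical axis starting at 0. ACSL4 is at 63.4 CPM in sgPKA against 34.0 and 42.8 CPM in the controls, and POR and LPCAT3 differ between the controls by more than their bars.

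TPM divides counts by a length that depends on which transcripts of a gene are used, and this divisor moved between libraries by more than in the median gene for FAR1, AGPS, POR, GNPAT and ACSL1. TPM per unit of CPM, relative to the median gene of each library, was 0.708 and 0.615 for FAR1 in the controls, 0.637 in sgPKA and 0.709 in sgALKBH5. The highest was 1.15 times the lowest for FAR1 and 1.19 times for AGPS, 1.12 times for POR, 1.08 times for GNPAT and 1.06 times for ACSL1, against a median of 1.05 over 9169 genes with at least 100 counts in every library. For POR it was 1.27 and 1.26 in the controls and 1.13 in sgALKBH5, the library in which its TPM and CPM ratios to control 1 were 0.859 and 0.948. For ACSL3 and ACSL4 the highest was 1.03 times the lowest, so relative to the median gene their length moved little. Their TPM and CPM ratios still differed with the scaling of the libraries. For sgPKA over control 2, these were 1.66 in TPM and 1.41 in TMM-scaled CPM for ACSL3, and 1.75 and 1.48 for ACSL4. Levels of single transcripts were not analysed here.

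The promoters of ACSL3, ACSL4, FAR1 and GNPAT are shown because these genes lay together in sgPKA, and because the kinase is known for phosphorylating the factor CREB, which binds the cAMP response element TGACGTCA. This choice was made after their values were seen. Sequences are those of RefSeq on GRCh38.p14, read on the strand of the gene from 250 bases before to 50 after the start of the gene, and capitals mark each TGACG, the shorter form of the element, on either strand. The windows lie at chr2:222860786-222861085 (plus strand) for ACSL3, chrX:109733208-109733507 (minus strand) for ACSL4, chr11:13668418-13668717 (plus strand) for FAR1 and chr1:231240962-231241261 (plus strand) for GNPAT.
ACSL3: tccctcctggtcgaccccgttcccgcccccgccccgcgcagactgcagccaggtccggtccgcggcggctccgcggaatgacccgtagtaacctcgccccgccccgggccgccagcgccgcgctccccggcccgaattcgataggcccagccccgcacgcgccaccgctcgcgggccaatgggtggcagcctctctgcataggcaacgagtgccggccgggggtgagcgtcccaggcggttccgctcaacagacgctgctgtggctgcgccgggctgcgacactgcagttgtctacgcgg
ACSL4: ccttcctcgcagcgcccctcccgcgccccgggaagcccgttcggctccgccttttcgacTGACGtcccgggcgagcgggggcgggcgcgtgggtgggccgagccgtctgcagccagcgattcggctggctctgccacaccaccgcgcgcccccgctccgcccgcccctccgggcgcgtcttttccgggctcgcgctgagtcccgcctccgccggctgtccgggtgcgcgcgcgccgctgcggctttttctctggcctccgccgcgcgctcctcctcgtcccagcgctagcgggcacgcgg
FAR1: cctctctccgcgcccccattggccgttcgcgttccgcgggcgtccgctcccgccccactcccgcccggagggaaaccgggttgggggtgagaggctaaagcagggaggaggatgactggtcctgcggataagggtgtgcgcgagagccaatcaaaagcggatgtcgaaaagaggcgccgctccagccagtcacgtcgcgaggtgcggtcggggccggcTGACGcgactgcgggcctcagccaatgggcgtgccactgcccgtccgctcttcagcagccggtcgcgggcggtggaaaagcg
GNPAT: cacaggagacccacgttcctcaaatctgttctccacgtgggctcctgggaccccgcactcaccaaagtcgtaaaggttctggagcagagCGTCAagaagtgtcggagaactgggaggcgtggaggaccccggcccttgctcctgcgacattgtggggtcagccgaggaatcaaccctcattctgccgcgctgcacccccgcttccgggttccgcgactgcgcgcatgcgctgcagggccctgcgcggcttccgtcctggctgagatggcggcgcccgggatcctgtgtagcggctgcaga

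All 4 windows were rich in G and C, from 65.0% in GNPAT to 77.7% in ACSL4, against a median of 58.7% over 34943 promoters. The full element TGACGTCA, searched on both strands, was in 0 of the 4 windows and in 1.84% of all promoters. TGACG was in the windows of ACSL4, FAR1 and GNPAT and not in those of ACSL3, AGPS and LPCAT3. It was in 24.5% of all promoters, a share not matched for G and C content. It overlaps the full element by construction and was added to the search after the values were seen. The sterol regulatory element TCACNCCAC was in none of the 4 windows and in 1.12% of promoters, and the antioxidant response core TGACNNNGC was in none of them and in 13.3%. The GC box GGGCGG was in the windows of ACSL3, ACSL4 and FAR1 and in 44.9% of promoters, and the peroxisome proliferator response element of the DR1 type was in none of the 4 and in 0.0229%. Over all 7 of the 9 genes with a promoter entry, the full element was in 0 and TGACG in 4 (ACSL1 as well). The sterol element and the antioxidant core were in ACSL1 alone, and the GC box was in 6 (all but GNPAT). ACSL1 had 5 windows, at different starts, and each other gene had 1. Its matches are thus not comparable with shares of single promoters. In the ACSL1 window nearest the start of the gene, only the GC box was found. Its TGACG, sterol and antioxidant matches lay in other windows. Such matches describe letters in these windows and are not evidence of binding.

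The same question was put for the guide against ALKBH5, in a library where ALKBH5 was still at 37.5 TPM. None of the 9 genes lay above both controls in this library. ACSL3, ACSL4, FAR1, GNPAT, POR and CYB5R1 lay below both in TPM, which is 6 of the 9 genes, against 27.5% of genes below both and 39.1% above both. In TMM-scaled CPM, ACSL1 and AGPS joined them, which makes 8 of the 9, against 34.3% below and 33% above. The median of the 9 genes was -0.08 from the control mean in log2(TPM + 1), from -0.43 for POR to 0.13 for LPCAT3, against 0.05 over all genes. In log2(CPM + 1) it was -0.17, against -0.01 over all genes. In TPM 0 of the 9 reached 1.5-fold in either direction from both controls, against 2.78% above and 1.82% below.

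The value of POR in this library rested on the control used, at 0.859 times control 1 and 0.635 times control 2 in TPM, and 0.948 and 0.655 times in TMM-scaled CPM. Its edgeR log2 fold change was -0.37 (standard error 0.31), with an adjusted p of 0.998. For ACSL4 it was -0.31 with a standard error of 0.26, and for FAR1 -0.31 with a standard error of 0.21. For LPCAT3 it was 0.05 with a standard error of 0.30, and it turned with the control used. The edgeR test called 0 of 13061 genes (0%) and 0 of the 9, with 0 of the 9 at an unadjusted p under 0.05, against 1.31% of genes higher and 1.52% lower, and DESeq2 called 0 of the 9 against 0.282% of genes. Counting intervals kept sgALKBH5 above both controls for 0 of the 9 genes, against 12.8% of genes, and below both for 0, against 12.9%.

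Set directly against each other, the targeted libraries differed most in ACSL4, with 26.7 TPM in sgPKA and 11.8 TPM in sgALKBH5, a ratio of 2.26. FAR1 was 1.84 times, GNPAT 1.79 times and ACSL3 1.72 times as high in sgPKA in TPM. The edgeR log2 fold change between them was 1.03 for ACSL4 with a standard error of 0.30, and 0.93 for FAR1 with a standard error of 0.25, both at an adjusted p of 0.424. In this contrast edgeR called 0 of the 9 and 0 of 13061 genes (0%), and DESeq2 0 of the 9 and 310 of 12048 (2.57%). At an unadjusted p under 0.05, ACSL4 and FAR1 were higher in sgPKA, against 5.01% of genes, and 0 of the 9 lower, against 6.63%. Both comparisons above share the controls, so this contrast is the one that tests a difference between the targeted libraries.

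The 3 genes whose profile over the 4 libraries was most like that of ACSL4 were ECT2, POGLUT3 and PPP1R15A. Likeness was the root mean square difference of centred log2(TPM + 1), which was 0.03 for each of them, among 7734 genes with a mean of at least 10 TPM. Within 0.1 lay 66 of these genes, and a likeness over only 4 libraries is not evidence of shared regulation. PPP1R15A was at 76.7 and 89.8 TPM in the controls, 158 TPM in sgPKA and 74.4 TPM in sgALKBH5.

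Other genes of these pathways were read from 9 lists with 89 genes, of which 70 had a mean of at least 1 TPM. In sgPKA 32 of the 70 lay above both controls in TPM and 19 below both, where 50.3% and 26.9% of all genes did, and the list counts below are to be read against these shares. In TMM-scaled CPM the numbers were 30 and 28, against 39.7% and 38.3% of all genes. A fold of 2 in TPM was reached by 4 above and 0 below, against 1.04% and 1.39% of all genes. In TMM-scaled CPM it was reached by HMOX1 and PLA2G4C above, against 0.559%, and by ACSL5 below, against 2.11%. Of these, PLA2G4C and ACSL5 rest on few counts. PLA2G4C had 22 and 34 counts in the controls and 84 in sgPKA, and ACSL5 had 56 and 49 in the controls and 6 in sgPKA. The edgeR test called 0 of the 70. In sgALKBH5 27 lay above and 23 below in TPM, against 39.1% and 27.5% of all genes, and 0 reached 2-fold above and 1 below, where 1.03% and 0.482% of all genes did, and edgeR called 0. In TMM-scaled CPM, 21 lay above and 27 below, against 33% and 34.3% of all genes. On that scale FADS2 reached 2-fold below and ELOVL4, named after its values were seen, 2-fold above. The share of all genes at this fold is not given here. ELOVL4 had 41 and 6 counts in the controls and 142 in sgALKBH5.

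In the ether lipid list, PEDS1 was lower in sgPKA where FAR1 and GNPAT were higher. PEDS1 is the desaturase that makes the vinyl ether bond of plasmalogens, a later step than those of FAR1, GNPAT and AGPS. It was at 74.5 and 51.9 TPM in the controls, 31.3 TPM in sgPKA and 94.9 TPM in sgALKBH5. The targeted libraries lay on opposite sides of both controls, with an edgeR log2 fold change of -1.15 in sgPKA (standard error 0.30, adjusted p of 0.527) and 0.49 in sgALKBH5 (standard error 0.28, adjusted p of 0.998). PEDS1 shares exons with the readthrough gene PEDS1-UBE2V1, so its counts are uncertain. CHPT1, a cholinephosphotransferase, was at 75.9 and 76.3 TPM in the controls, 71.0 TPM in sgPKA and 78.7 TPM in sgALKBH5. Of the 10 measured genes, 5 lay above both controls in sgPKA and 3 below, and 3 above and 4 below in sgALKBH5. ETNK1, an ethanolamine kinase named after its values were seen, was at 19.9 and 17.8 TPM in the controls, 23.6 TPM in sgPKA and 8.59 TPM in sgALKBH5. Its counts differed more in sgPKA than its TPM did, with an edgeR log2 fold change of 0.91 (standard error 0.27). In sgALKBH5 the edgeR log2 fold change was -0.89 (standard error 0.29).

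Among 13 other lysophospholipid acyltransferases, 5 lay above both controls in sgPKA and 6 below. The pair with the highest level was below in sgPKA. MBOAT7, which places arachidonate on phosphatidylinositol, was at 160 and 143 TPM in the controls, 103 TPM in sgPKA and 201 TPM in sgALKBH5. AGPAT1, which makes phosphatidic acid, was at 114 and 99.9 TPM in the controls, 78.2 TPM in sgPKA and 114 TPM in sgALKBH5. LPGAT1 and LCLAT1, named after their values were seen, were on the other side and past 1.5-fold in TPM in sgPKA, while LPCAT1, named likewise, was past 1.5-fold below. LPCAT1, which acts in phosphatidylcholine remodelling, was at 84.2 and 65.9 TPM in the controls, 42.3 TPM in sgPKA and 87.4 TPM in sgALKBH5, with an edgeR log2 fold change of -1.01 in sgPKA (standard error 0.24, adjusted p of 0.527). LPGAT1 was at 9.46 and 8.85 TPM in the controls, 18.5 TPM in sgPKA and 8.59 TPM in sgALKBH5. LCLAT1 had 6.05 and 6.25 TPM in the controls, 10.5 TPM in sgPKA and 5.87 TPM in sgALKBH5. In sgALKBH5, 7 of the 13 lay above both controls and 3 below.

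Of 10 other acyl-CoA synthetases, 4 had a mean of at least 1 TPM, so ACSL3, ACSL4 and ACSL1 shared the field mainly with the SLC27A transport synthetases. SLC27A4 was at 62.1 and 84.3 TPM in the controls, 65.8 TPM in sgPKA and 61.2 TPM in sgALKBH5, and SLC27A5 at 19.8 and 25.7 TPM in the controls, 23.1 TPM in sgPKA and 22.7 TPM in sgALKBH5. In sgPKA 0 of the 4 lay above both controls and 1 below both. That was ACSL5, named after its values were seen, at 1.70 and 1.41 TPM in the controls, 0.240 TPM in sgPKA and 2.21 TPM in sgALKBH5. The 15 genes of peroxisome assembly and import had a median of 0.07 in log2(TPM + 1) in sgPKA, where all genes had 0.15, and 0.04 in sgALKBH5. PEX19 was at 42.9 and 41.6 TPM in the controls, 44.4 TPM in sgPKA and 43.5 TPM in sgALKBH5, and PEX16 at 35.6 and 38.2 TPM in the controls, 27.5 TPM in sgPKA and 40.3 TPM in sgALKBH5. In sgPKA 0 of the 15 reached 1.5-fold from both controls in either direction.

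The genes that make long polyunsaturated acids were measured in all 5 cases. FADS1 was at 95.5 and 84.6 TPM in the controls, 118 TPM in sgPKA and 85.6 TPM in sgALKBH5. FADS2, which encodes delta-6 desaturase, was at 177 and 180 TPM in the controls, 237 TPM in sgPKA and 16.3 TPM in sgALKBH5. Its edgeR log2 fold change in sgALKBH5 was -3.72 with a standard error of 0.26 and an adjusted p of 0.998, while DESeq2 gave an adjusted p of 1.12e-34. The median of the 5 genes was 0.34 in sgPKA and -0.01 in sgALKBH5.

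Lipoxygenases, which oxidise polyunsaturated acids enzymatically, were near the floor. ALOX5 and ALOX15 were at 0 in all 4 libraries, and only ALOX5AP and PEBP1, a partner that redirects lipoxygenase to phospholipids, had a mean of at least 1 TPM among 8 genes. ALOX5AP was at 0.466 and 2.097 TPM in the controls, 0.470 TPM in sgPKA and 2.94 TPM in sgALKBH5. PEBP1 was at 141 and 176 TPM in the controls, 161 TPM in sgPKA and 126 TPM in sgALKBH5. Each of the 6 lipoxygenase genes themselves was at 1.19 TPM or less in every library.

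Of the electron acceptors of POR, 3 of 7 measured genes reached 2-fold above both controls in the TPM of sgPKA, against 1.04% of all genes, and 1 of the 7, HMOX1, did so in TMM-scaled CPM. This list was chosen with earlier results of these data known, so the count describes it and tests nothing. POR itself lay below both controls. CYP51A1 and SQLE, enzymes of sterol synthesis, and HMOX1, the inducible haem oxygenase, were the 3 in TPM. CYP51A1 was at 41.97 and 50.3 TPM in the controls, 103 TPM in sgPKA and 27.1 TPM in sgALKBH5. SQLE was at 40.7 and 48.9 TPM in the controls, 104 TPM in sgPKA and 25.8 TPM in sgALKBH5, so both sterol genes lay above the controls in one targeted library and below them in the other. HMOX1 was at 42.05 and 52.4 TPM in the controls, 196 TPM in sgPKA and 30.2 TPM in sgALKBH5, and had an adjusted p of 0.527 by edgeR and 0.000456 by DESeq2. HMOX2, the constitutive haem oxygenase, was at 96.2 and 137 TPM in the controls, 88.7 TPM in sgPKA and 86.1 TPM in sgALKBH5. The edgeR log2 fold changes in sgPKA were 0.92 for CYP51A1, 1.01 for SQLE and 1.89 for HMOX1, with standard errors of 0.26, 0.25 and 0.27. Against control 2 alone, the log2 difference in TMM-scaled CPM was 0.73 for CYP51A1 and 0.84 for SQLE.

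Among 8 other flavin reductases and cytochrome b5 genes, CYB5R3 had the highest level, far above CYB5R1. It was at 285 and 287 TPM in the controls, 247 TPM in sgPKA and 235 TPM in sgALKBH5, below both controls in both targeted libraries as CYB5R1 was. CYB5B, the outer mitochondrial cytochrome, was at 119 and 105 TPM in the controls, 160 TPM in sgPKA and 106 TPM in sgALKBH5. Of the 8, 4 lay above both controls in sgPKA and 1 below. CYB5R4, named after its values were seen, was at 4.09 and 2.81 TPM in the controls, 8.91 TPM in sgPKA and 5.08 TPM in sgALKBH5. Its counts differed less, at 192 and 189 in the controls and 277 in sgPKA. The edgeR log2 fold change in sgPKA was 0.81 (standard error 0.29, adjusted p of 0.527).

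Among phospholipases A2, which release acyl chains from phospholipids, 6 of 10 had a mean of at least 1 TPM. PLA2G4C was at 0.944 and 1.48 TPM in the controls, 5.87 TPM in sgPKA and 2.17 TPM in sgALKBH5, with an edgeR log2 fold change of 1.85 in sgPKA, a standard error of 0.63 and an adjusted p of 0.527. PNPLA6 was at 59.0 and 49.2 TPM in the controls, 44.6 TPM in sgPKA and 61.9 TPM in sgALKBH5, and PLAAT3 at 46.8 and 29.05 TPM in the controls, 23.1 TPM in sgPKA and 38.7 TPM in sgALKBH5. Of the 6, 3 lay above both controls in sgPKA and 2 below.

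**Figure D4:**
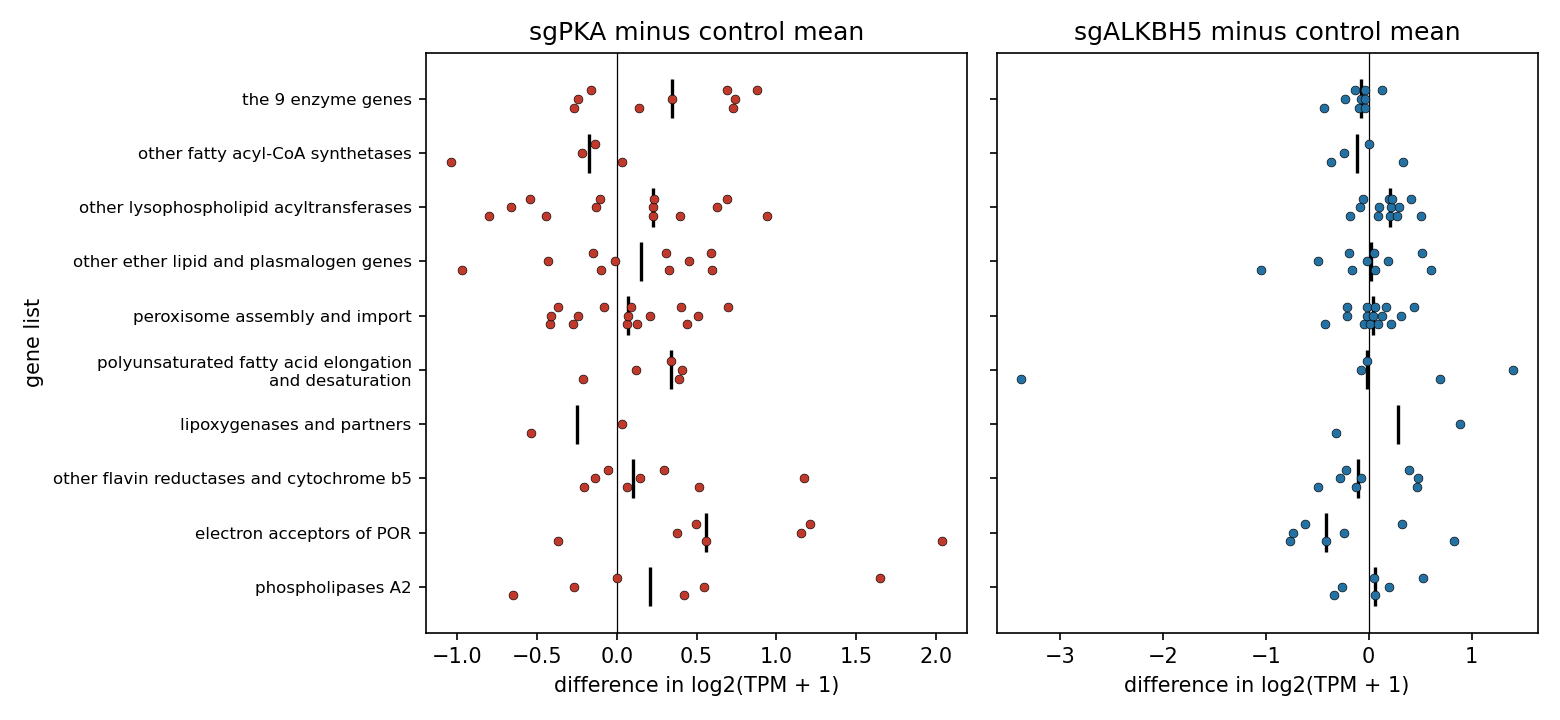
Difference from the control mean in log2(TPM + 1) for the 9 enzyme genes and for the measured genes of each list, with 1 point per gene and a black bar at the median; the panels have different horizontal ranges. The 9 enzyme genes have a median of 0.345 in sgPKA and -0.08 in sgALKBH5; FADS2 is the far left point in sgALKBH5 and HMOX1 the far right point in sgPKA.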

How the data were processed

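In 1 deposited table the authors give, for each gene, an expected count (unscaled, per the file headers) and a TPM for every library. Per the submitters' processing notes, the tools included HISAT2 2.1.0, StringTie 1.3.1, RSEM and fastp 0.18.0, and the build was GRCh38.p14. The annotation release and strand use are not given in the sources used here.

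After rounding, the counts of all 4 libraries entered 1 quasi-likelihood fit of 13061 genes (edgeR 4.0.16, R 4.3.3, TMM, filterByExpr, Benjamini-Hochberg at 0.05). The controls alone gave the spread, with 1 residual degree of freedom, and lone libraries were assumed to vary like them. The script was tested on simulated data with 100 genes changed 4-fold and 100 changed 16-fold in sgPKA. It recovered 51% and 86% of them, and called 9 unchanged genes. Folds of 2 or less were not simulated, and whether these rates hold for the real libraries was not tested. There edgeR called 0 of 13061 genes in each comparison. FADS2 was not called at a log2 fold change of -3.72 in sgALKBH5, nor HMOX1 at 1.89 in sgPKA. A lack of calls is thus not read as a lack of change at any fold. Alternatives were DESeq2 1.42.0, its size factors, no filter, limma 3.58.1 with a pseudocount of 1 or 0.1 on log2 TPM, rescaled TPM, CPM, a fold of 1.5 and each control left out. The 9 genes and the lists were chosen with earlier results of these data known. All 9 genes were named. From each list came the 2 genes with the highest mean TPM and those at least 2-fold from both controls. The planned promoter rule, 2-fold from both controls, was met by 0 of the 9 genes. Of the 9 symbols, 7 matched a RefSeq promoter. No protein sequences were used here.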

Additional observations from a re-analysis of the deposited data

How the results depend on the processing

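No gene among the 9 was called by any tool or setting run. Over all genes, the Wald test of DESeq2 called 121 genes between sgPKA and control, 34 between sgALKBH5 and control and 310 between the targeted libraries, where edgeR called 0 in each; with DESeq2 size factors, without the filter and with limma the counts were 0. At an unadjusted p under 0.05, edgeR counted 1184, 369 and 1521 genes. Lowering the fold from 2 to 1.5 took the count in sgPKA from 0 to 4 of the 9 genes. Combinations chosen after seeing the data gave 2 with TPM rescaled by TMM factors and 0 in TMM-scaled CPM. Without either control the count ranged from 0 at 2-fold to 4 at 1.5-fold in sgPKA. In sgALKBH5 it ranged from 0 to 1, the 1 being POR at 1.5-fold without control 1. Of 160 log2 fold changes retested, 156 kept their direction and side of the threshold, and of 46 recomputed without a control, with no test, 45 kept their direction. In every tested setting but the Wald test of DESeq2, 0 genes were called, so there only the direction could change. LPCAT3 in sgALKBH5 turned to -0.18 without control 1 and was 0.32 without control 2. POR between the targeted libraries turned from -0.09 to 0.16 with limma at either pseudocount. FADS2 in sgALKBH5 and HMOX1 in sgPKA passed in DESeq2. The cause was not tested. Without a control no residual degree of freedom was left, so only differences were computed. No paired analysis was possible because each targeted genotype has 1 library. Depth, at 301 to 2235 counts per gene and library, sets the counting intervals alone.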
